A study of Mus musculus with 29 samples.

Results

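Lactic acid was examined in CD4+ T cells that expressed Foxp3 after 72 h of activation with TGF-beta. These cells are called Treg here (regulatory T cells), and how many of them switched Foxp3 on in culture is not known. They were chosen by their labels: the 3 libraries of sorted RFP-positive cells from medium with TGF-beta and 10 mM lactic acid were set against the 3 libraries of RFP-positive cells from medium with TGF-beta alone, which makes 6 of the 29 libraries of the series. The groups are called lactic acid Treg and TGF-beta Treg below. The CD4+ T cells had been purified from spleens of C57BL/6-Foxp3tm1Flv/J mice, in which a red fluorescent protein (RFP) is made from the Foxp3 locus, and every group of the series carries that reporter allele. In both groups the cells received anti-CD3 (1.25 µg/ml), anti-CD28 (2.5 µg/ml), interleukin 2 (50 IU/ml) and TGF-beta (3 ng/ml) in RPMI medium with 0.5 mM glucose. RFP-negative cells from the same media, called Tcon below, serve as a comparison. The mice were male for replicate 1 of each group and female for the other two replicates. The labels give no age, do not say whether replicates 2 and 3 came from separate animals, and do not say whether Treg already present in the spleen were removed before culture. The p-values rest on the spread between libraries of the same group, estimated over all 29 libraries of the series. This spread may in part be technical.

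Regulatory T cells restrain other immune cells, and the transcription factor Foxp3 sets their program. TGF-beta switches Foxp3 on in conventional CD4+ T cells that are activated through the T cell receptor (TCR) in the presence of interleukin 2. Strong TCR signalling, which acts through calcium, MAP kinase and NF-kappaB pathways, drives cytokine genes in conventional T cells. Lactic acid is an end product of glycolysis that accumulates in inflamed tissue and tumours. It enters cells through monocarboxylate transporters together with a proton, so it delivers both acid and a fuel.

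The 6 libraries held 11360635 to 14132689 reads counted in genes, and 18272 to 20068 genes had at least 1 count. The library of TGF-beta Treg replicate 1 stood apart. Reads in no gene made up 10.6% of its entries, against 5.72% to 6.67% in the other 5 libraries, and it had the highest number of genes with a count. On the first principal component of the 6 libraries, which held 53.6% of the variance, it scored -67.2 and the other 5 scored -11.9 to 35.8. Same-numbered libraries of both groups deviated together from their group means (correlations across genes of 0.616, 0.317 and 0.459 for numbers 1, 2 and 3). Differently numbered libraries had correlations of -0.504 to 0.252, the highest close to that of number 2. Deviations within a group sum to 0, so these correlations depend on one another, and number 1 also differs from the others in sex. The numbers were taken to pair the libraries. Results below come from a fit without pairing. For the lists, the counts with replicates paired and without the replicate 1 pair, which removes both male libraries, are given beside them where they differ. A gene that "passed only with replicates paired" did so in that one of these 3 fits.

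Foxp3 checked the sort. It was present at 363 to 573 CPM (counts scaled to library size) in lactic acid Treg and at 153 to 303 CPM in TGF-beta Treg. RFP-negative cells from the same media held 35.7 to 59.8 CPM with lactic acid and 15.4 to 35.6 CPM without it, and no library from medium without TGF-beta exceeded 1.97 CPM. All 8 CD4 T cell markers examined were measured in every Treg library. Of 11 B cell markers, Ms4a1 and Cd22, which define B cells, were at 0.148 CPM or below in lactic acid Treg and at 0 in TGF-beta Treg. The myeloid markers summed to 9.89 to 12.5 CPM in lactic acid Treg and 9.64 to 12.4 CPM in TGF-beta Treg, with S100a8, S100a9 and Cd14 at 0 in all 6 libraries. The summed markers of CD8 and natural killer cells were 108.2, 144.1 and 143.2 CPM in lactic acid Treg, against 123, 142.5 and 144 CPM in TGF-beta Treg. These sums hide opposite moves: of 7 tested members, 4 were higher and 2 lower in all 3 pairs. Xcl1 was called lower, while Eomes was 39.6, 73.7 and 68.4 CPM in lactic acid Treg and 20.6, 55.5 and 45.7 CPM in TGF-beta Treg. Since whole sorted populations were sequenced, fewer cells of a type and less RNA per cell cannot be told apart.

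In Treg, 504 of 14375 genes passed the test for lactic acid (edgeR quasi-likelihood test, Benjamini-Hochberg adjusted p below 0.05), which is 3.51%. Of these, 214 (1.49%) were higher and 290 (2.02%) lower in lactic acid Treg. Among these called genes, 168 of the falls and 36 of the rises were at least 2-fold. The shares of all tested genes with changes of that size are not given here. All but 1 of the 504 genes moved the same way in each of the 3 same-numbered pairs, as 26.4% of all tested genes did upward and 21.6% downward. The groups did not overlap in 488 of the 504 genes and in 17.9% of all tested genes. The largest rises and falls named below were chosen among genes without overlap. With replicates paired, 2833 genes passed (19.7%), 1425 higher (9.91%) and 1408 lower (9.79%), and these include every one of the 504 in the same direction. Without the replicate 1 pair, 179 of 14312 genes passed (1.25%), and 150 of the 504 were among them in the same direction. Counts of list members below are to be read against these shares of all tested genes. With any 1 of the 6 libraries left out, 138 to 630 genes passed, and 112 of the 504 passed in all 6 of those fits. The fewest passed without lactic acid Treg replicate 2 (138) and without TGF-beta Treg replicate 1 (165). With the 6 Treg libraries fitted alone and without pairing, 16 genes passed.

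**Figure D1:**
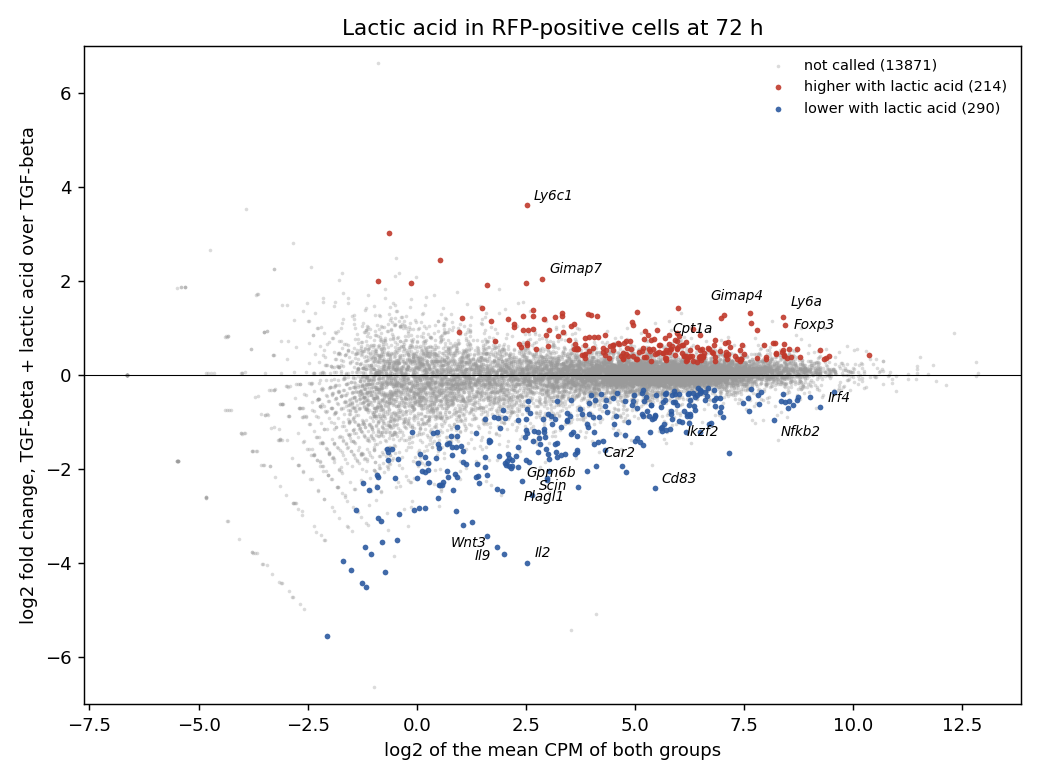
Log2 fold change of each of the 14375 tested genes, lactic acid Treg over TGF-beta Treg at 72 h (vertical axis), against the log2 of its mean CPM over both groups, offset by 0.01 CPM (horizontal axis). Red points are the 214 genes called higher and blue points the 290 called lower; the falls reach further from 0 than the rises.

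Genes of Treg identity and suppression moved in both directions. Foxp3, Entpd1 and Izumo1r rose and Ikzf2 fell. The other 21 of the 25 measured members did not pass. Foxp3 was 362.8, 572.5 and 467.2 CPM in replicates 1, 2 and 3 of lactic acid Treg, against 153.2, 303.4 and 215.1 CPM in those of TGF-beta Treg. The groups did not overlap, and the log2 fold change was 1.06 ± 0.26 (SE, n = 3 each, edgeR adjusted p = 0.024). It was 1.09 ± 0.12 with replicates paired (edgeR adjusted p = 1.54e-06) and 1.00 without the replicate 1 pair (edgeR adjusted p = 0.0871). The unpaired call was lost in 4 of the 6 fits that left out 1 library. These were the fits without TGF-beta Treg replicate 1 or 3 or lactic acid Treg replicate 2 or 3. Entpd1 encodes CD39, an ectoenzyme that breaks down extracellular ATP and is abundant on Treg. It was 76.5, 83.7 and 84.4 CPM in lactic acid Treg and 39, 48.9 and 43.6 CPM in TGF-beta Treg (log2 fold change 0.90 ± 0.15). Izumo1r, which encodes the folate receptor 4 of Treg and anergic T cells, was 342.4, 355.9 and 368.4 CPM in lactic acid Treg and 180.2, 228.1 and 251.7 CPM in TGF-beta Treg (0.69 ± 0.12). Both calls held in all 6 fits that left out 1 library, and without the replicate 1 pair.

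Ikzf2 encodes Helios, a transcription factor that is abundant in thymus-derived Treg. It was 60.2, 53.2 and 48.7 CPM in lactic acid Treg, against 129.3, 94.5 and 72.7 CPM in TGF-beta Treg. The library of TGF-beta Treg replicate 1 held the highest level, and the groups did not overlap (log2 fold change -0.87 ± 0.20, edgeR adjusted p = 0.0178). The call was lost without TGF-beta Treg replicate 1 and without lactic acid Treg replicate 2 or 3. The change was -0.72 without the replicate 1 pair (edgeR adjusted p = 0.139) and -0.84 ± 0.11 with replicates paired (edgeR adjusted p = 6.21e-06). The list as a whole had a median log2 fold change of 0.13, against 0.01 over all tested genes. With replicates paired, 6 members passed as higher and 6 as lower (9.91% and 9.79% of all tested genes). Without the replicate 1 pair 2 passed as higher and none as lower.

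Il2ra, Ctla4 and Il10, which are also tied to Treg function, did not pass. Il2ra, the alpha chain of the interleukin 2 receptor, was 2583.4, 3798.6 and 3652.8 CPM in lactic acid Treg and 1544, 3068.2 and 3046.3 CPM in TGF-beta Treg. These ranges overlapped (log2 fold change 0.39 ± 0.20, edgeR adjusted p = 0.338, and 0.00723 with replicates paired). Ctla4, an inhibitory receptor, was 275.1, 279.2 and 284.5 CPM in lactic acid Treg and 198.2, 239.8 and 245.7 CPM in TGF-beta Treg (0.30 ± 0.17, edgeR adjusted p = 0.389). Il10, an anti-inflammatory cytokine, was at 1.96, 1.4 and 2.73 CPM in lactic acid Treg and 5.16, 2.73 and 5.21 CPM in TGF-beta Treg. Its change of -1.11 ± 0.40 missed the threshold (edgeR adjusted p = 0.135) and passed with replicates paired (0.0116). Gpr83, an orphan receptor of Treg, was at 67.2, 131.6 and 116.4 CPM in lactic acid Treg and 23.4, 69.8 and 61.1 CPM in TGF-beta Treg. These ranges overlapped, and it passed only with replicates paired (log2 fold change 1.03, edgeR adjusted p = 0.0963, and 1.43e-05 paired).

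**Figure D2:**
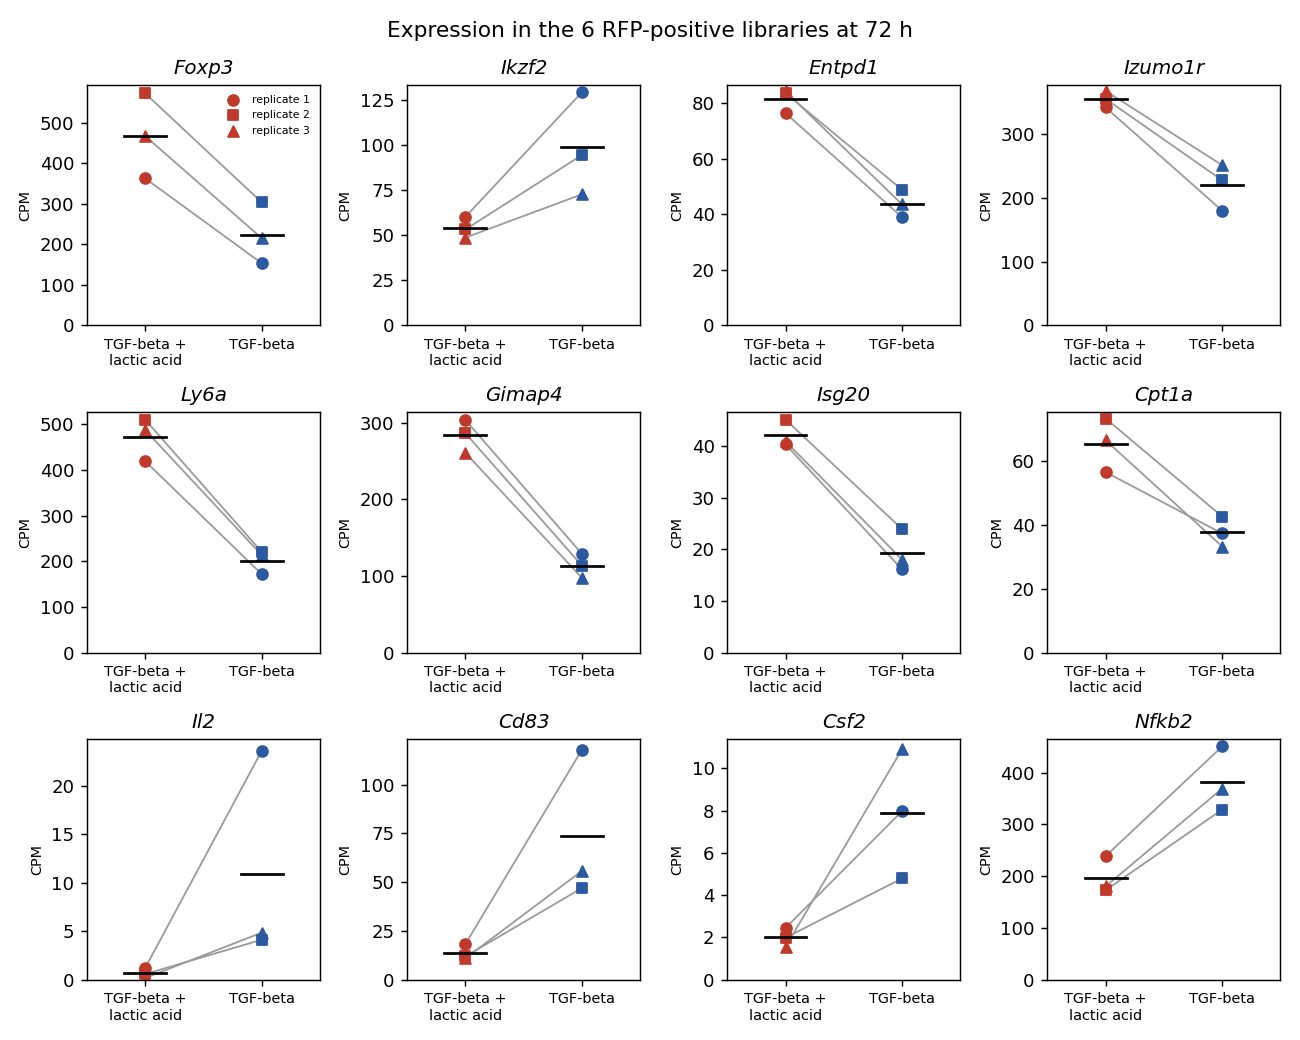
CPM of 12 genes in each of the 6 libraries, with lactic acid Treg (red) on the left and TGF-beta Treg (blue) on the right of each panel. Symbols mark replicates, thin lines join same-numbered libraries and black bars are group means; all 12 genes moved the same way in the 3 pairs, and Il2, Cd83 and Ikzf2 were highest in TGF-beta Treg replicate 1.

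Gimap GTPases rose together. The Gimap genes form 1 cluster on mouse chromosome 6 and encode GTPases of immunity-associated proteins, which support lymphocyte survival. All 8 measured members were higher in lactic acid Treg in each of the 3 pairs. Gimap1, Gimap3, Gimap4, Gimap5, Gimap6, Gimap7 and Gimap9 passed, and Gimap8 did not (log2 fold change 0.80 ± 0.26, edgeR adjusted p = 0.0887, and 2.25e-05 with replicates paired). Gimap4 was the most abundant, at 303.3, 286.1 and 260.5 CPM in lactic acid Treg, against 128.7, 113.3 and 97.4 CPM in TGF-beta Treg (1.32 ± 0.25). Gimap7 was the least abundant, at 12.7, 12.7 and 10.1 CPM in lactic acid Treg, against 3.26, 2.51 and 2.78 CPM in TGF-beta Treg. Its log2 fold change of 2.05 ± 0.32 was the largest of the family, and the smallest was that of Gimap5 (0.57 ± 0.09). CPM are not corrected for transcript length, so these orders of level are of read counts.

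The list had a median log2 fold change of 0.83, and the 7 calls remained without the replicate 1 pair (median 1.00). The same 7 genes also passed in each of the 6 fits that left out 1 library. Reads from near-identical stretches of Gimap3 and Gimap5 may have been divided between them. In the gene order of RefSeq (GRCm38.p6), the cluster lies between Zfp775 and Tmem176b. None of its 6 measured neighbours passed: Lrrc61, Gm5111, Repin1 and Zfp775 on one side had log2 fold changes of 0.17 to 0.95, and Tmem176b and Tmem176a on the other had 0.33 and -0.18. With replicates paired, Gm5111 passed (edgeR adjusted p = 0.0139).

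Ly6 antigens are small lipid-anchored surface proteins of lymphocytes, and several are induced by interferon. Ly6c1 showed the largest rise of all genes that met the naming rule. It was 8.74, 12.4 and 10.6 CPM in lactic acid Treg, against 0.683, 1.11 and 0.782 CPM in TGF-beta Treg (log2 fold change 3.61 ± 0.41, edgeR adjusted p = 1.77e-05). Ly6a, which encodes Sca-1, was 418.8, 509.5 and 487 CPM in lactic acid Treg, against 171.5, 220.1 and 213.2 CPM in TGF-beta Treg (1.23 ± 0.17). Both passed in each fit that left out 1 library. Of the other 3 measured members, Ly6e (1.00 ± 0.34, edgeR adjusted p = 0.115) and Ly6k (1.05 ± 0.40, 0.168) passed only with replicates paired (1.12e-07 and 0.0242), and Ly6c2 had a change of 0.47 ± 0.49 at 0.728 to 1.88 CPM in lactic acid Treg and 0.695 to 1.06 CPM in TGF-beta Treg. Ly6c1 and Ly6c2 are close paralogs between which reads may have been divided.

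Of 30 measured interferon response genes, 4 passed as higher and none as lower (median log2 fold change 0.62). With replicates paired, 16 passed, all higher, where 9.91% of all tested genes passed as higher. Isg20, an exonuclease that degrades viral RNA, was 40.3, 45.1 and 40.9 CPM in lactic acid Treg and 16.1, 23.9 and 18 CPM in TGF-beta Treg (1.12 ± 0.20). Gbp2, a guanylate-binding protein of cell-autonomous defence, was 336.4, 335.4 and 206.3 CPM in lactic acid Treg and 202.5, 152.2 and 100.7 CPM in TGF-beta Treg (0.95 ± 0.24). Gbp5, of the same family, rose by 0.64 ± 0.18 on the log2 scale. Isg20 passed in each fit that left out 1 library, while Gbp2 and Gbp5 each lost their calls in 4 of those 6 fits. Without the replicate 1 pair Isg20 and Gbp2 passed (edgeR adjusted p = 0.0366 and 0.0499), and without pair 2 or 3 Gbp2 did not (0.197 and 0.0866).

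Other members of the list are given by their values, and no difference between kinds of interferon gene was tested. The interferon-gamma-inducible GTPases Igtp, Irgm1, Iigp1, Gbp3, Gbp6 and Gbp7 had log2 fold changes of 0.70 to 1.11 that passed with replicates paired and not otherwise. The antiviral gene Isg15 held 0.728 to 3.03 CPM in lactic acid Treg and 1.84 to 2.88 CPM in TGF-beta Treg (log2 fold change -0.02 ± 0.47), and Mx1 stayed below 1 CPM in all 6 libraries. Ifng, the gene of interferon-gamma, was lower in all 3 pairs, at 21, 23.8 and 41.4 CPM in lactic acid Treg and 25.3, 53.4 and 141.6 CPM in TGF-beta Treg. The groups overlapped, and it passed only with replicates paired (-1.35 ± 0.48, edgeR adjusted p = 0.128, and 0.00434 paired).

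A minority of T cell cytokine genes passed, and those that did were lower. Of 26 measured members, Il2, Il9, Csf2, Tnfsf8, Tnfsf14 and Tnfsf11 were lower in lactic acid Treg and none higher (median log2 fold change -1.14). With replicates paired 12 were lower, where 9.79% of all tested genes were, and 2, Lif and Osm, higher, and without the replicate 1 pair 3 were lower. Il2, the T cell growth factor that Foxp3 represses, was 1.23, 0.59 and 0.182 CPM in lactic acid Treg, against 23.6, 4.13 and 4.86 CPM in TGF-beta Treg. The highest library was TGF-beta Treg replicate 1, and the groups did not overlap, a condition for naming among the largest falls (-3.99 ± 0.80, edgeR adjusted p = 0.00633). The call was lost without that library and without lactic acid Treg replicate 2. The change was -3.43 without the replicate 1 pair (edgeR adjusted p = 0.106) and -3.90 ± 0.58 with replicates paired (edgeR adjusted p = 3.87e-05). Interleukin 2 protein had been added to the medium of both groups.

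Il9, a cytokine of type 2 and Th9 responses, was 0.409, 0.443 and 0.728 CPM in lactic acid Treg and 3.49, 6.71 and 12.2 CPM in TGF-beta Treg (-3.81 ± 0.72). Csf2, which encodes GM-CSF, was 2.45, 1.99 and 1.55 CPM in lactic acid Treg and 7.97, 4.79 and 10.9 CPM in TGF-beta Treg (-1.96 ± 0.29). Both were low-abundance transcripts with groups that did not overlap, and both calls held with any 1 library left out. Tnfsf8 (CD30 ligand), Tnfsf14 (LIGHT) and Tnfsf11 (RANKL), ligands of the TNF family, fell by 2.06 ± 0.44, 1.60 ± 0.34 and 0.97 ± 0.23 on the log2 scale. Tnfsf8 was 14, 9.74 and 8.64 CPM in lactic acid Treg and 81.7, 28.5 and 24.4 CPM in TGF-beta Treg, and its call and that of Tnfsf14 were lost without TGF-beta Treg replicate 1. The abundant cytokine transcripts of the list did not pass: Lta held 512.5 to 684.5 CPM in lactic acid Treg and 419.7 to 691.1 CPM in TGF-beta Treg (0.10 ± 0.17), and Tnf 108.9 to 119.7 CPM and 105.3 to 159.9 CPM in the same order (-0.15 ± 0.21).

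Of 10 measured chemokine genes, Ccl3, Ccl4 and Xcl1 were lower and none higher (median log2 fold change -1.20). With replicates paired 7 were lower (9.79% of all tested genes), and without the replicate 1 pair Ccl3 and Ccl4 were. Ccl3 and Ccl4 encode the inflammatory chemokines MIP-1alpha and MIP-1beta, which activated T cells release. Ccl3 was 64, 32.8 and 35 CPM in lactic acid Treg and 97.8, 77.4 and 127.7 CPM in TGF-beta Treg (-1.20 ± 0.29). Ccl4 was 103.1, 45.6 and 56.7 CPM in lactic acid Treg and 166.6, 92.9 and 158.6 CPM in TGF-beta Treg, so that its groups overlapped (-1.03 ± 0.27). Xcl1, a chemokine for cross-presenting dendritic cells, was 43.4, 41.1 and 37.3 CPM in lactic acid Treg and 83.1, 64.5 and 68.3 CPM in TGF-beta Treg (-0.83 ± 0.19). Ccl3 and Ccl4 lost their calls in 4 and Xcl1 in 3 of the 6 fits without 1 library, each of them without TGF-beta Treg replicate 1.

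Of 12 chemokine receptors, Ccr6 fell and no other passed (with replicates paired 1 was higher and 4 were lower, and without the replicate 1 pair none passed). Ccr6, the receptor for Ccl20 on Th17 cells and some Treg, was 3.27, 0.959 and 1.27 CPM in lactic acid Treg and 14.7, 5.75 and 5.91 CPM in TGF-beta Treg (-2.26 ± 0.59). Its ligand gene Ccl20 was 2.94, 1.84 and 1.73 CPM in lactic acid Treg and 6.98, 4.35 and 7.38 CPM in TGF-beta Treg, a change of -1.51 ± 0.45 that passed only with replicates paired (edgeR adjusted p = 0.0633, and 0.000146 paired). The Ccr6 call was lost without TGF-beta Treg replicate 1 and without lactic acid Treg replicate 2 or 3.

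Early activation genes are those that T cells switch on within hours of receptor stimulation. Of 27 measured, Cd83, Egr2, Egr3, Nr4a1, Nr4a2, Irf4, Tagap and Bhlhe40 fell and none rose (median log2 fold change -0.51, against 0.01 over all tested genes). With replicates paired 20 were lower (9.79% of all tested genes) and 1, Myc, was higher, and without the replicate 1 pair 6 were lower. Cd83, an activation marker of lymphocytes, had the largest change of the list. It was 18.3, 12 and 11 CPM in lactic acid Treg, against 117.9, 47 and 55.8 CPM in TGF-beta Treg (-2.41 ± 0.35, edgeR adjusted p = 0.000363). Its call held with any 1 library left out and the change without the replicate 1 pair was -2.15.

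Egr2 and Egr3, zinc finger factors induced by calcium and MAP kinase signals that also restrain T cell responses, changed by -1.21 ± 0.29 and -0.77 ± 0.17. Egr2 was 74.4, 36.2 and 53.1 CPM in lactic acid Treg and 178.8, 82.7 and 117.5 CPM in TGF-beta Treg. Nr4a1 and Nr4a2, nuclear receptors that report the strength of TCR signals, changed by -0.56 ± 0.15 and -0.90 ± 0.18. Irf4, a factor of effector differentiation that is induced in proportion to TCR signal strength, was 537.7, 402.8 and 463.6 CPM in lactic acid Treg and 890.8, 597.9 and 753.6 CPM in TGF-beta Treg (-0.68 ± 0.14). Nr4a2 kept its call with any 1 library left out. Irf4 lost it without TGF-beta Treg replicate 1 and without lactic acid Treg replicate 2, and Egr3 lost it in 4 such fits. The AP-1 genes Fos, Jun and Junb did not pass, with log2 fold changes of -0.53, 0.31 and -0.25. Fos was lower with replicates paired, and Junb was lower without the replicate 1 pair (-0.54).

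NF-kappaB factors carry signals of the TCR and of costimulatory and TNF receptors to the nucleus, and they induce their own inhibitor genes. Of 15 measured members, the subunit genes Nfkb1, Nfkb2 and Rel and the inhibitor gene Nfkbia fell, while Bcl3, an atypical nuclear inhibitor, rose (median log2 fold change -0.29). With replicates paired 9 were lower and 2 higher (9.79% and 9.91% of all tested genes). Without the replicate 1 pair 3 were lower and none higher. Promoter sequences of Nfkb2, Nfkbia and Rel are shown because these genes fell and their promoters hold a kappaB-like motif. They are RefSeq sequences of the GRCm38.p6 build, 250 bases before to 50 bases after a gene start, in the direction of transcription, with the motif in capitals.
Nfkb2 promoter, chr19:46304487-46304786, plus strand: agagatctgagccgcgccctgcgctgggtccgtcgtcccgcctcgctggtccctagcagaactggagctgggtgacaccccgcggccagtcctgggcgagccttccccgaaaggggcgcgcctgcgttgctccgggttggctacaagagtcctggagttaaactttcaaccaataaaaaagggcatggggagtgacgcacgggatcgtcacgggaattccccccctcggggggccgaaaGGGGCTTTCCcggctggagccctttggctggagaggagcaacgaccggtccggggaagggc
Nfkbia promoter, chr12:55492598-55492897, minus strand: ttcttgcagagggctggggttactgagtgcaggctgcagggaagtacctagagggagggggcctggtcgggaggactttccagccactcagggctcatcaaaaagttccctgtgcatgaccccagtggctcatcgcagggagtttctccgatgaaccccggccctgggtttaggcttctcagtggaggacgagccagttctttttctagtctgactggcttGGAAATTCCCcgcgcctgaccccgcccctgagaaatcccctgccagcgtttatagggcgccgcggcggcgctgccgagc
Rel promoter, chr11:23770920-23771219, minus strand: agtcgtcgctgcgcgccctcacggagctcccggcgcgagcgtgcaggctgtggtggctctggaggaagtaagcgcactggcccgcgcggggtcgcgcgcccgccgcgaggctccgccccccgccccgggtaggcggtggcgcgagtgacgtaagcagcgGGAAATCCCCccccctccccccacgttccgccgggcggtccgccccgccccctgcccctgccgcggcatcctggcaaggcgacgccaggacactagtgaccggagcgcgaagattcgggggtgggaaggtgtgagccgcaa
The motif searched was GGG, any 2 bases and then TTTCC, on both strands. It begins at position -11 from the gene start in Nfkb2, -29 in Nfkbia and -91 in Rel. Nfkb2 has 3 starts with a window, of which 1 is shown. The windows of the other 2 overlap and share a single match, at 10 and at -225 from their own starts. A match describes the letters in this window and is neither a binding site nor a cause.

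The motif was found in 1.63% of the 32851 promoter windows of the table. Counted by gene, it was in 1.89% of the 27025 genes there and in 4 of the 10 NF-kappaB genes that have a window (Nfkb2, Rel, Nfkbia and Tnfaip3), and a gene with several windows has more chances of a match. It was in the promoters of 6 of 162 genes called higher (3.70%), 9 of 219 called lower (4.11%) and 205 of 9909 tested (2.07%). The AP-1 motif TGANTCA, which reads the same on both strands, was in those of 10 of the 162 genes called higher (6.17%), 24 of the 219 called lower (11%) and 590 of the 9909 tested (5.95%). The cyclic AMP response motif TGACGTCA was in 3, 7 and 365 of them. Of 18 early activation genes with a window, 1 held the kappaB-like motif, 0 the AP-1 motif and 1 the cyclic AMP response motif. Of the 10 NF-kappaB genes, 3 held the AP-1 motif and 0 the cyclic AMP response motif. No test was made of these shares.

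Nfkb2, which encodes the p100 precursor of the alternative pathway, was 238.7, 173 and 180.2 CPM in lactic acid Treg, against 450.5, 328.6 and 369.3 CPM in TGF-beta Treg (-0.96 ± 0.15, edgeR adjusted p = 0.000888). The groups were far apart in every library and the call held with any 1 of them left out. Nfkbia, which encodes the inhibitor IkappaBalpha, was 128.8, 85.1 and 77.7 CPM in lactic acid Treg and 172.1, 138.6 and 152.9 CPM in TGF-beta Treg (-0.67 ± 0.15). Rel, which encodes the c-Rel subunit needed for Foxp3 induction in the thymus, was 205, 167.2 and 166.3 CPM in lactic acid Treg and 297.5, 245 and 283.8 CPM in TGF-beta Treg (-0.62 ± 0.16). The calls of Nfkbia and Rel were lost without TGF-beta Treg replicate 1, among other libraries. Bcl3 was 72.1, 77.8 and 72.3 CPM in lactic acid Treg and 42, 55.2 and 52.6 CPM in TGF-beta Treg (0.57 ± 0.13). Relb and Tnfaip3, which encode another subunit of the alternative pathway and the inhibitor A20, did not pass (-0.65 ± 0.20 and -0.59 ± 0.21). Both were lower with replicates paired, and Relb also without the replicate 1 pair.

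**Figure D3:**
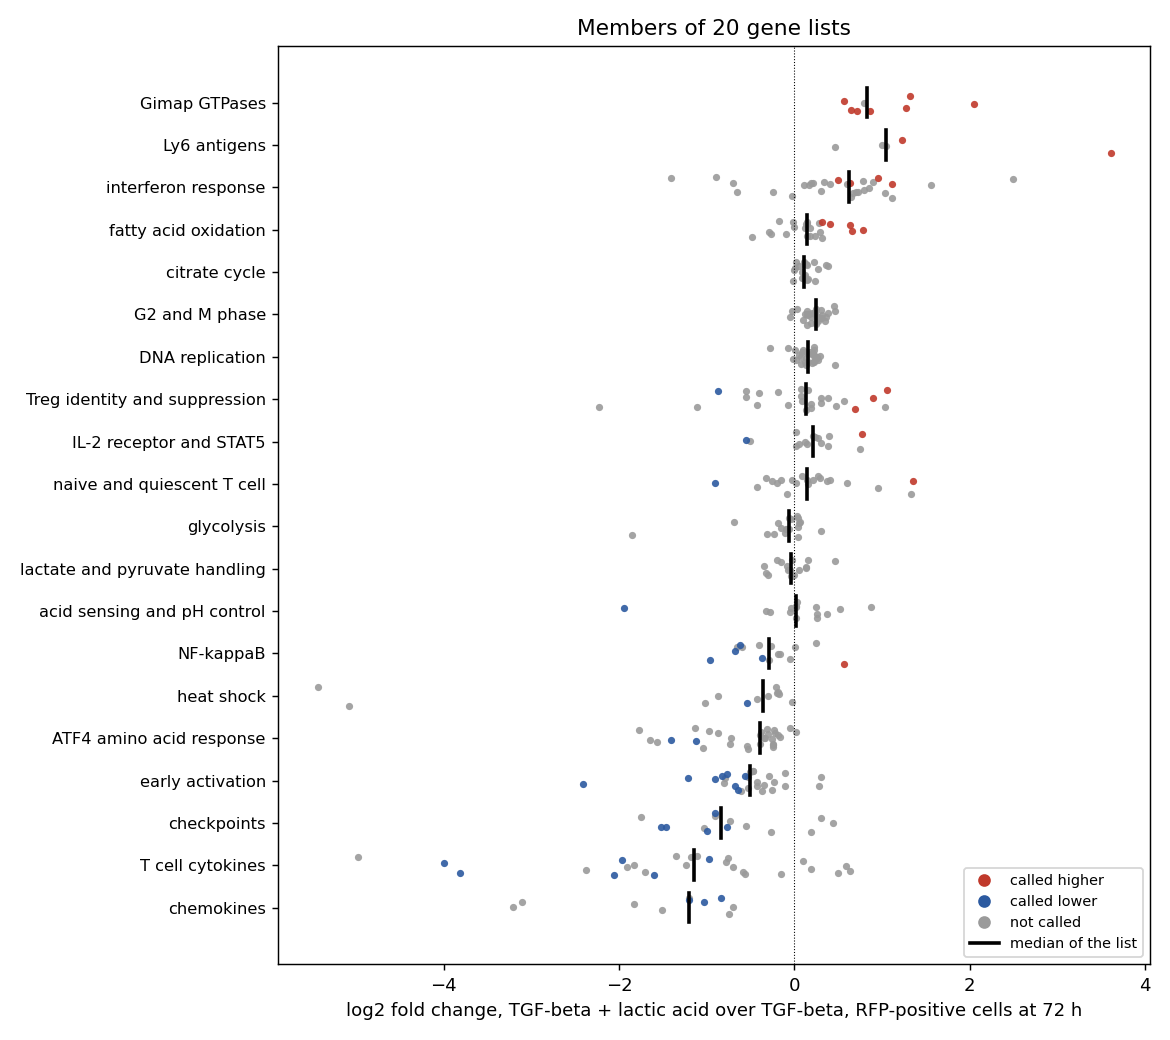
Log2 fold change, lactic acid Treg over TGF-beta Treg, of each measured member of 20 gene lists (horizontal axis), 1 row per list, with points spread vertically for legibility only. Red points were called higher, blue lower and grey not called, and a black bar is the list's median: 0.83 for Gimap GTPases at the top and -1.20 for chemokines at the bottom.

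Checkpoint genes encode inhibitory receptors and their ligands. Of 14 measured, Cd200, Cd160, Btla, Pdcd1lg2 and Havcr2 fell and none rose (median log2 fold change -0.83). With replicates paired 10 were lower (9.79% of all tested genes) and 1, Vsir, was higher, and without the replicate 1 pair 1, Cd200, was lower. Cd200, which inhibits myeloid cells through its receptor, was 48.8, 42.4 and 44.8 CPM in lactic acid Treg and 97.3, 78.8 and 94 CPM in TGF-beta Treg (-0.99 ± 0.14). Cd160 and Btla, which bind the TNF receptor family member HVEM, changed by -1.46 ± 0.27 and -0.77 ± 0.18, Pdcd1lg2, which encodes PD-L2, by -0.90 ± 0.22, and Havcr2, which encodes TIM-3, by -1.52 ± 0.38. Pdcd1, which encodes the receptor PD-1, was 54.1, 32.5 and 37.1 CPM in lactic acid Treg and 113.9, 53.8 and 63.7 CPM in TGF-beta Treg. The ranges met at the lowest TGF-beta Treg and the highest lactic acid Treg library, and it passed only with replicates paired (edgeR adjusted p = 0.0878, and 7.75e-06 paired).

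Of 18 genes for costimulation and TNF receptors, Tnfrsf8 and Tnfsf4 fell, Tnfrsf1a rose and the other 15 did not pass (median log2 fold change -0.23). With replicates paired 2 were higher and 6 lower (9.91% and 9.79% of all tested genes), and without the replicate 1 pair Tnfrsf8 alone passed. Tnfrsf8, which encodes CD30, the receptor of the Tnfsf8 product, was 4.82, 3.32 and 3.64 CPM in lactic acid Treg and 13.4, 10.2 and 11.6 CPM in TGF-beta Treg (-1.58 ± 0.26). Receptor and ligand genes were thus both lower in each of the 3 pairs. Tnfsf4, which encodes OX40 ligand, was 6.37, 5.53 and 7.19 CPM in lactic acid Treg and 28.8, 15.1 and 13.3 CPM in TGF-beta Treg (-1.59 ± 0.36). Its call was lost without TGF-beta Treg replicate 1 or lactic acid Treg replicate 2. Tnfrsf1a, the death-domain TNF receptor, had a log2 fold change of 0.44 ± 0.12 and lost its call in 5 of the 6 fits without 1 library.

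Among 15 genes of interleukin 2 receptor signalling, Socs3 rose and Stat5a fell. Stat5a, a transcription factor that this receptor activates and that acts on the Foxp3 gene, was 228.3, 271.6 and 291.4 CPM in lactic acid Treg, against 347.7, 378.4 and 435.7 CPM in TGF-beta Treg (-0.55 ± 0.10, edgeR adjusted p = 0.00225). Its close paralog Stat5b was 346.9, 375.4 and 390.4 CPM in lactic acid Treg and 303, 385.5 and 411.3 CPM in TGF-beta Treg (0.02 ± 0.10). Reads may be divided between these paralogs. Socs3, a feedback inhibitor of cytokine signalling, was 54.4, 57.6 and 52 CPM in lactic acid Treg and 29.2, 34.2 and 32.6 CPM in TGF-beta Treg (0.77 ± 0.19), and its call was lost in 4 of the 6 fits without 1 library. With replicates paired 6 members were higher and 2 lower (9.91% and 9.79% of all tested genes), and without the replicate 1 pair Stat5a alone passed.

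Of 21 genes of naive and quiescent T cells, Txk rose and Slfn2 fell (median log2 fold change 0.15). With replicates paired 5 were higher and 3 lower, and without the replicate 1 pair Txk and Slfn2 alone passed. Txk, a Tec-family kinase, was 49.4, 53.5 and 40.2 CPM in lactic acid Treg and 20.4, 20.6 and 15.2 CPM in TGF-beta Treg (1.35 ± 0.25). Slfn2, a factor that keeps T cells quiescent in mice, was 107, 89.3 and 75.2 CPM in lactic acid Treg and 211.3, 130.2 and 165.8 CPM in TGF-beta Treg (-0.90 ± 0.14). Both calls held with any 1 library left out. Klf2, a factor of quiescence and lymphocyte trafficking, was 102.5, 70.7 and 52.9 CPM in lactic acid Treg and 47.9, 46.9 and 21.1 CPM in TGF-beta Treg. It was higher in all 3 pairs and passed only with replicates paired (0.96 ± 0.42, edgeR adjusted p = 0.232, and 1.74e-05 paired).

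Of 13 T helper lineage factors, Ahr fell and no other passed. Ahr, a ligand-activated factor of Th17 and Treg differentiation, was 14.3, 15.8 and 19.8 CPM in lactic acid Treg and 33.5, 28 and 29.7 CPM in TGF-beta Treg (-0.87 ± 0.14). With replicates paired 2 of the list were higher and 4 lower, and without the replicate 1 pair Ahr alone passed. Tbx21 and Gata3, the Th1 and Th2 factors, had log2 fold changes of -0.27 and -0.23 and passed in neither fit.

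Of 16 measured genes of the TGF-beta pathway, Tgfbr3 fell and no other passed (median log2 fold change 0.02). With replicates paired 1 was higher and 2 were lower (9.91% and 9.79% of all tested genes), and without the replicate 1 pair Tgfbr3 alone passed. Tgfbr3, the coreceptor betaglycan, was 59.3, 58.7 and 73.8 CPM in lactic acid Treg and 88.6, 94 and 119.2 CPM in TGF-beta Treg (-0.65 ± 0.12). The receptors Tgfbr1 and Tgfbr2 and the signal transducers Smad2, Smad3 and Smad4 had log2 fold changes of -0.04 to 0.11. Of 18 genes of the TCR and its proximal signalling, Cd3g, a chain of the CD3 complex, rose by 0.30 ± 0.09 and Lcp2, which encodes the adaptor SLP-76, fell by 0.46 ± 0.11 on the log2 scale. Their calls were lost in 5 and 4 of the 6 fits without 1 library. With replicates paired 4 of the list were higher and 1 lower, and without the replicate 1 pair Lcp2 alone passed.

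Of 23 measured genes of fatty acid oxidation, 5 were higher and none lower (median log2 fold change 0.15). With replicates paired 8 were higher (9.91% of all tested genes) and 1 was lower, and without the replicate 1 pair 2 were higher. Cpt1a, which commits long-chain fatty acids to mitochondria, was 56.5, 73.3 and 66.5 CPM in lactic acid Treg, against 37.3, 42.6 and 33.2 CPM in TGF-beta Treg. Its change of 0.79 ± 0.14 held with any 1 library left out (edgeR adjusted p = 0.00225). Cpt2, its partner on the inner membrane, and the oxidation enzymes Acaa2, Acadl and Acadvl rose by 0.64 ± 0.16, 0.66 ± 0.18, 0.41 ± 0.10 and 0.32 ± 0.09 on the log2 scale. The calls of Cpt2, Acaa2 and Acadl were each lost in 3 or 4 fits without 1 library.

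Glycolysis and lactate handling showed no calls. None of 19 glycolysis genes and none of 17 genes of lactate and pyruvate handling passed (edgeR; with replicates paired 1 higher and 3 lower, and 0 higher and 2 lower). Ldha, which interconverts pyruvate and lactate, was 2772.5, 3018.9 and 3026.2 CPM in lactic acid Treg and 1906.2, 2899.2 and 3263.9 CPM in TGF-beta Treg. The groups overlapped, and the log2 fold change of 0.13 ± 0.17 turned to -0.07 without TGF-beta Treg replicate 1. Slc16a1, which encodes the lactate importer MCT1, was 169.9, 162.1 and 189.4 CPM in lactic acid Treg and 191.3, 205.4 and 246.9 CPM in TGF-beta Treg. It passed only with replicates paired (-0.30 ± 0.11, edgeR adjusted p = 0.152, and 0.00105 paired). Slc16a3, which encodes the exporter MCT4, was 464.7, 378.7 and 395.2 CPM in lactic acid Treg and 402.7, 411.5 and 466.1 CPM in TGF-beta Treg (-0.05 ± 0.21), with groups that overlapped.

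Of 15 genes for acid sensing and pH control, Car2 fell and no other passed (with replicates paired 3 were higher and 1 lower). Car2 encodes a cytosolic carbonic anhydrase, which buffers intracellular pH. It was 7.27, 7.97 and 6.1 CPM in lactic acid Treg, against 27.2, 29.8 and 24.9 CPM in TGF-beta Treg, levels far apart in relation to their spread (-1.94 ± 0.26, edgeR adjusted p = 0.000158). The call held with any 1 library left out. The proton-sensing receptor gene Gpr65 was 37.2, 42.9 and 41.4 CPM in lactic acid Treg and 38.7, 40 and 40.9 CPM in TGF-beta Treg (0.02 ± 0.11, edgeR adjusted p = 0.947). None of 20 citrate cycle genes passed (median log2 fold change 0.12, 6 higher with replicates paired). Of 71 nuclear genes of the respiratory chain Cox6b2 alone passed, as lower, at 2.35 CPM or below (median 0.13; 15 higher and 2 lower with replicates paired, against 9.91% and 9.79% of all tested genes). The 7 measured mitochondrially encoded genes gave no call, and their sums were 9481, 7669 and 8312 CPM in lactic acid Treg and 10450, 12460 and 6104 CPM in TGF-beta Treg.

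Proliferation genes gave no calls in the unpaired fit. None of 30 DNA replication genes, 30 G2 and M phase genes, 12 G1 control genes or 28 genes of ribosome biogenesis and Myc targets passed (edgeR). With replicates paired, 9 of the DNA replication genes and 11 of the G2 and M phase genes were higher and none lower, where 9.91% of all tested genes were higher, and their median log2 fold changes were 0.16 and 0.25. Myc itself was 300.8, 405.4 and 436.6 CPM in lactic acid Treg and 185.5, 360.7 and 397.8 CPM in TGF-beta Treg (0.28 ± 0.27, edgeR adjusted p = 0.665, and 0.0284 paired). With replicates paired, 3 G1 control genes were higher and 1 lower, and 1 gene of ribosome biogenesis and Myc targets was higher and 1 lower. The 77 ribosomal protein genes gave no call and a median of 0.03 (1 higher with replicates paired).

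Stress lists depended on how replicates were treated. Of 30 genes of the amino acid response driven by ATF4, Stc2, a secreted glycoprotein, and Atf3, a stress-induced repressor, fell and none rose (median log2 fold change -0.38). Without the replicate 1 pair the median was -0.74 and 10 were lower, and with replicates paired 21 were lower (9.79% of all tested genes). Asns, which encodes asparagine synthetase, shows the pattern: it was 226.2, 88.6 and 110.8 CPM in lactic acid Treg and 266.9, 189.9 and 244.8 CPM in TGF-beta Treg, lower in each pair and highest in replicate 1 of both groups (-0.72 ± 0.27, edgeR adjusted p = 0.152, and 0.000255 paired), and its change was -1.13 without the replicate 1 pair. Of 12 heat shock genes, Hspe1, the mitochondrial co-chaperonin, fell by 0.54 ± 0.13 on the log2 scale, and its call was lost without TGF-beta Treg replicate 1 and without the pair, which left no call in that list. With replicates paired 8 of the 12 were lower (9.79% of all tested genes). Hspa1a, which encodes the inducible HSP70, was 1.31, 0.0738 and 0.182 CPM in lactic acid Treg and 59.8, 7.96 and 0.261 CPM in TGF-beta Treg, so that most of its signal lay in TGF-beta Treg replicate 1 and it passed only with replicates paired (edgeR adjusted p = 0.0918, and 2.38e-05 paired). Hmox1, a target of the oxidative stress factor NRF2, was likewise highest in that library (144.6 CPM) and passed only with replicates paired (-1.91 ± 0.77, edgeR adjusted p = 0.189, and 7.93e-06 paired). The 18 unfolded protein response genes and 15 hypoxia genes gave no call (edgeR; with replicates paired 2 higher and 5 lower, and 0 higher and 2 lower).

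Among smaller groups, Gadd45a and Gadd45b, stress sensors also linked to DNA demethylation, fell by 1.80 ± 0.43 and 1.10 ± 0.29 on the log2 scale, and the other 12 genes of DNA methylation and the Tet enzymes did not pass. Bcl2a1b and Bcl2a1d, near-identical prosurvival genes induced by NF-kappaB, fell by 1.16 ± 0.29 and 0.93 ± 0.26. Reads may be divided between them, and the other 12 Bcl-2 family members did not pass. Of 16 integrin and adhesion genes, Itgb8, the integrin chain with which Treg activate latent TGF-beta, and the memory marker Cd44 fell (-1.43 ± 0.32 and -0.71 ± 0.19), while Itga6 and the selectin ligand Selplg rose (0.69 ± 0.17 and 0.55 ± 0.15). Fads2, a fatty acid desaturase, was the only one of 31 lipid synthesis genes to pass (-0.87 ± 0.21). Arsb and Hexa, lysosomal hydrolases, rose (1.43 ± 0.36 and 0.41 ± 0.11) out of 30 lysosome and proton pump genes. Each of these calls was lost in 3 to 6 of the 6 fits without 1 library. With replicates paired, the counts of members higher and lower were 2 and 4 for DNA methylation, 1 and 5 for the Bcl-2 family, 5 and 7 for integrins, 2 and 5 for lipid synthesis and 6 and 3 for lysosome genes. Over all tested genes 9.91% were higher and 9.79% lower in that fit. Without the replicate 1 pair, 1 integrin gene was higher and 1 lower, 2 lipid synthesis genes were lower, and the other three lists gave no call. None of 14 NRF2 genes and none of 10 cytotoxic granule genes passed (edgeR; with replicates paired 2 higher and 7 lower, and 1 higher and 1 lower).

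The B cell marker list held 1 call, Ighm, the heavy chain gene of immunoglobulin M. It was 295, 283 and 254 CPM in lactic acid Treg, against 148, 140 and 98.1 CPM in TGF-beta Treg (1.11 ± 0.13, edgeR adjusted p = 2.64e-05), and the call held with any 1 library left out. The antigen presentation gene Cd74, of the same list, was 60.1, 32.2 and 32.9 CPM in lactic acid Treg and 189, 76.5 and 73.7 CPM in TGF-beta Treg, and it passed only with replicates paired, as lower. The list summed to 358.3, 320.5 and 292.1 CPM in lactic acid Treg and 340.3, 220.1 and 175.4 CPM in TGF-beta Treg. Of its 11 members, 5 passed the filter on low counts, and Cd79a, Pax5, Ebf1, Blnk, Ms4a1 and Cd22 were at 0.364 CPM or below in every Treg library. Cd72, a B cell receptor inhibitor that is not on that list, rose as well, at 10.1, 7.67 and 9.1 CPM in lactic acid Treg and 4.48, 3.1 and 3.56 CPM in TGF-beta Treg.

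The remaining large rises belonged to genes of varied function. Arsb, counted above among lysosome genes, was 52.7, 125.6 and 98 CPM in lactic acid Treg and 18.8, 51.8 and 31.5 CPM in TGF-beta Treg, with groups only just apart. Abcb9, a peptide transporter of lysosomes, was 18.4, 23.5 and 25.3 CPM in lactic acid Treg and 6.91, 9.81 and 10.9 CPM in TGF-beta Treg (1.28 ± 0.23). Hsd11b1, which regenerates active glucocorticoid, was 16.5, 27.5 and 21.2 CPM in lactic acid Treg and 6.6, 11.9 and 7.9 CPM in TGF-beta Treg (1.30 ± 0.36). Abcb9 and Emilin1, an extracellular matrix glycoprotein (1.26 ± 0.21), passed in each fit that left out 1 library, as did Cd72. The calls of Hsd11b1, Fut4, a fucosyltransferase (1.25 ± 0.35), and Phf11b (1.25 ± 0.30) were lost in 4 such fits, that of Tmem273 (1.32 ± 0.34) in 5 and that of 2900011O08Rik (1.96 ± 0.40) in 2.

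The largest falls outside the immune lists kept their calls in every fit without 1 library. Wnt3, a secreted Wnt ligand, was 0.981, 0.295 and 0.273 CPM in lactic acid Treg, against 10.8, 3.83 and 5.38 CPM in TGF-beta Treg (-3.66 ± 0.53). Scin, an actin-severing protein, was 2.04, 2.07 and 1.27 CPM in lactic acid Treg and 12.6, 10.5 and 8.77 CPM in TGF-beta Treg (-2.55 ± 0.30). Plcd1, a phospholipase C, was 1.14, 0.959 and 1.46 CPM in lactic acid Treg and 5.01, 5.6 and 9.03 CPM in TGF-beta Treg (-2.46 ± 0.40). Pdzk1ip1, a small membrane protein, changed by -2.43 ± 0.27, Plagl1, a zinc finger factor, by -2.37 ± 0.40, and Papss2, which makes the sulfate donor PAPS, by -2.18 ± 0.39. Thbs1, which encodes thrombospondin 1, a protein able to activate latent TGF-beta, was 1.96, 2.21 and 4.19 CPM in lactic acid Treg and 7.74, 12.5 and 18.8 CPM in TGF-beta Treg (-2.23 ± 0.39). Sspo changed by -3.42 ± 0.61, at 0.817 CPM or below in lactic acid Treg and at 10.7, 2.8 and 3.3 CPM in TGF-beta Treg. Gpm6b, a membrane proteolipid known from neurons, was 7.11, 4.21 and 6.28 CPM in lactic acid Treg and 22.1, 21.5 and 29 CPM in TGF-beta Treg, and it had the smallest adjusted p of the named genes (-2.05 ± 0.20, edgeR adjusted p = 2.48e-06).

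Tcon are RFP-negative cells of the same media. Of the 85 named genes called in Treg, 84 had a log2 fold change of the same sign in Tcon, and the exception was Cpt2 (0.64 in Treg and -0.05 in Tcon). Treg and Tcon libraries of 1 number came from the same medium and may share deviations, so this count is a description. The 85 genes were picked for their change in Treg, and the share of all tested genes with the same sign is not given here. A direct test of the difference between both lactic acid effects called 0 of 14375 genes by edgeR (0%), with 381 genes at an unadjusted p under 0.05, and 0 by DESeq2 with 354. With replicates paired it called 0 as well, with 1081 at an unadjusted p under 0.05. Were there no difference in any gene, a share of 0.05 of the tested genes would be expected there. The 381 and 354 genes lie below that share and the 1081 genes above it. That no gene was called does not show that both effects were equal. The log2 fold changes of Foxp3, 1.06 in Treg and 1.04 in Tcon, differ by 0.02 ± 0.38 (SE).

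Of the 5 genes with the smallest p for that difference, Gpm6b was the only one called in Treg. Its log2 fold change was -2.05 there and -0.92 in Tcon, where it was 16, 13.5 and 17.3 CPM with lactic acid and 27.9, 26.3 and 34.8 CPM without it. The difference of -1.12 ± 0.27 had an unadjusted p of 0.000328 and an edgeR adjusted p of 1. Tle1, a transcriptional corepressor, was 15.6, 17.4 and 16.8 CPM in lactic acid Treg and 15.4, 16.3 and 16.3 CPM in TGF-beta Treg, and in Tcon 10.6, 10.2 and 10.5 CPM with lactic acid and 16.8, 17.5 and 17.9 CPM without it. Gm15975, D430018E03Rik and 4933421A08Rik had differences of 0.77 ± 0.21, -2.87 ± 0.76 and -2.37 ± 0.60, the last 2 at 1.41 CPM or below in every Treg and Tcon library of this comparison. None of the 5 passed after adjustment.

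**Figure D4:**
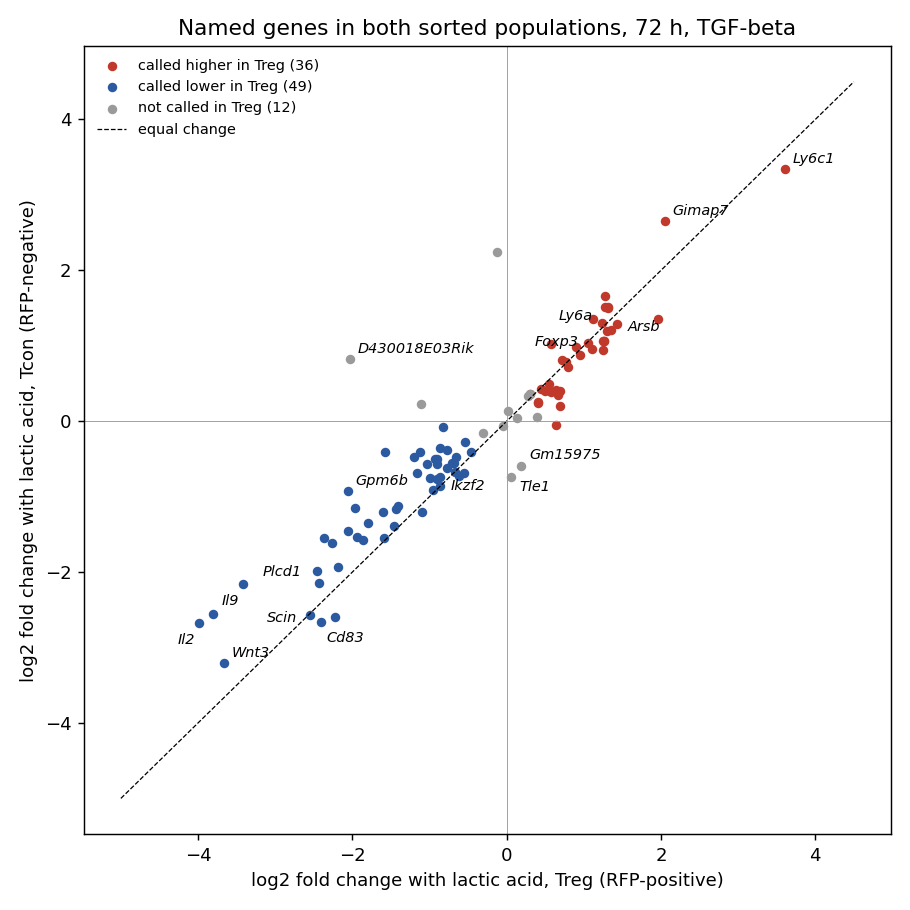
Log2 fold change with lactic acid at 72 h in medium with TGF-beta for the 97 named genes, in Treg (horizontal axis) and in Tcon (vertical axis). Red and blue points were called higher (36) or lower (49) in Treg, grey points (12) were not called, and the dashed line marks equal change; several called points lie off it, such as Gpm6b (-2.05 in Treg and -0.92 in Tcon) and Tnfrsf8 (-1.58 and -0.41), and the difference passed for none.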

How the data were processed

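RNA of sorted mouse CD4+ T cells was sequenced as 29 libraries in 10 groups, and 6 of them, 3 in each of 2 groups, are compared here. Per the labels' protocols, RNA was purified with DNase treatment, and libraries were made with a kit for stranded mRNA and read as single reads. Per the submitters' processing notes, STAR 2.7.3a, HTSeq 0.12.4, DESeq2 1.30.1 and the GRCm39 build were used. The deposited values are raw counts of reads per gene. The sources used here do not give the strand setting, the annotation release or the pH of the media. The members and gene lists were chosen with earlier results of these data known.

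Of 55414 gene IDs, 52081 were given a symbol from an annotation of GRCm38, used for names only. All 29 libraries were fitted together in edgeR 4.0.16 (R 4.3.3), with TMM scaling, a filter on low counts (filterByExpr, at a minimum of 10 per gene and 15 in total), a quasi-likelihood test without pairing, and Benjamini-Hochberg adjustment over 14375 genes at 0.05. The SE of a fold change is its size divided by the square root of F. The code was tested on simulated data. Lines for reads in no gene, ambiguous reads and poorly aligned reads were kept out of library sizes: in the Treg libraries they made up 5.72% to 10.6%, 1.01% to 1.07% and 14.8% to 15.5% of the entries. Total counts were 11360635 to 14132689 in the Treg libraries, and values are precise only to the counting error of these totals.

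Replicate numbers come from the labels. Same-numbered libraries of both Treg groups deviated from their group means with correlations of 0.616, 0.317 and 0.459, against -0.504 to 0.252 for different numbers. These correlations depend on one another, since deviations within a group sum to 0. The numbers were taken to pair the libraries, and a second fit, which blocks on number separately at each time, is given beside the main result. The named genes are the 14 largest rises and 14 largest falls among protein-coding genes that passed, averaged at least 5 CPM in either group and had groups that did not overlap, up to 4 called members of each list by p, a panel of 12 genes, and the 5 genes with the smallest p for the difference between Treg and Tcon. Genes named beside these are list members chosen after their values were seen. Alternatives were DESeq2 1.42.0, another scaling, no filter, fewer libraries and leaving out replicates. Promoter sequences are RefSeq's, from GRCm38.p6, and the motifs were chosen with the results known. A few list members are not reported here by name.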

Additional observations from a re-analysis of the deposited data

Results flagged for a closer look

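Tle1 and Gm15975, which were named for the smallest p of this difference, had pair values above 0 in Treg and below 0 in Tcon in all 3 same-numbered pairs. Neither passed in Treg, where their log2 fold changes were 0.05 ± 0.13 and 0.18 ± 0.15 (edgeR adjusted p = 0.889 and 0.593). The lactic acid effect in Treg minus that in Tcon was 0.79 for Tle1 and 0.77 for Gm15975 on the log2 scale, and the edgeR adjusted p of both differences was 1. Gm15975 was 5.88, 5.9 and 6.28 CPM in lactic acid Treg and 5.46, 5.24 and 5.21 CPM in TGF-beta Treg. In Tcon it was 4.79, 4.62 and 5.18 CPM with lactic acid and 7.07, 7.19 and 7.76 CPM without it.

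Reads that HTSeq could not give to 1 gene averaged 1.06% of the entries in lactic acid Treg and were above the mean of TGF-beta Treg. Counts of gene IDs with no symbol averaged 0.687% of all gene counts in lactic acid Treg, where TGF-beta Treg held 0.386% to 0.415%. The lactic acid Treg values were 0.576%, 1.012% and 0.473% in replicates 1, 2 and 3. The ambiguous reads are not part of the comparisons above. Gene IDs with no symbol were fitted under their IDs where they passed the filter on low counts.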

How the results depend on the processing

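The 504 genes called for lactic acid became 2833 with a replicate block within each time point (1425 higher, 1408 lower) and 1564 with the replicate block in the 6 Treg libraries alone (652 higher, 912 lower). Without pairing, the 6 Treg libraries alone gave 16 (6 higher, 10 lower) and the 72 h libraries alone 155 (62 higher, 93 lower). DESeq2 called 323 higher, and no filter on low counts gave 440 lower. Leaving out 1 library gave 138 to 630 calls, 56 to 260 higher and 82 to 397 lower. Leaving out a same-numbered pair gave 93 to 200 calls, 23 to 74 higher and 70 to 126 lower. An alternative chosen after seeing the data, all 72 h libraries numbered 1 left out, gave 1132 (436 higher, 696 lower). Fewer samples were fitted where libraries were left out; otherwise the cause was not tested. The share of calls that were higher was 42.5% as reported, 34.1% with no filter, 50.3% with the replicate block, 32.4% without pair 1 and 24.7% without pair 3.

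The signs that turned belong to genes that passed in no such fit. Ldha (-0.07 to 0.29 with 1 library or pair left out) was -0.07 without TGF-beta Treg replicate 1, -0.03 without pair 1 and -0.03 without all 72 h libraries numbered 1. Gpr65 (-0.02 to 0.08) was -0.00 with the replicate block in the 6 libraries alone, -0.02 without lactic acid Treg replicate 2 and -0.02 without pair 2. Slc16a3 (-0.18 to 0.05) was 0.01 without lactic acid Treg replicate 2, 0.02 without TGF-beta Treg replicate 3 and 0.05 without pair 3. 4933421A08Rik (-0.46 to 0.48) was 0.48 without TGF-beta Treg replicate 2 and 0.45 without pair 2. Of the 97 named genes, 97 kept their direction and call with DESeq2, 95 with another scaling, 93 with no filter, 54 with the 72 h libraries alone, 20 with the 6 Treg libraries alone and 92 with the replicate block, which added Il2ra, Il10, Slc16a1, Myc and D430018E03Rik. Foxp3 was among those that lost their calls in the 72 h libraries alone (adjusted p = 0.158) and the 6 Treg libraries alone (0.196). Depth limits the genes near 1 CPM, such as Il2 in lactic acid Treg.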

Other observations

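Several genes outside the naming rule, chosen after their values were seen, had small adjusted p-values and passed in each fit that left out 1 of the 6 Treg libraries. Lad1, an anchoring filament protein known from epithelia, was 68, 72.5 and 66.7 CPM in lactic acid Treg and 191, 208 and 254.4 CPM in TGF-beta Treg (-1.66 ± 0.16, edgeR adjusted p = 2.48e-06). Ptger4, which encodes the prostaglandin E receptor EP4, was 87.3, 84 and 92.5 CPM in lactic acid Treg and 133.6, 140.8 and 140.2 CPM in TGF-beta Treg (-0.65 ± 0.07). The spread within each of these groups was small beside the gap between them. Slc2a6, a lysosomal hexose transporter, was 19.7, 17 and 19.7 CPM in lactic acid Treg and 54.8, 43.3 and 43.7 CPM in TGF-beta Treg (-1.33 ± 0.15).

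Penk, which encodes the opioid peptide precursor proenkephalin, was 10.2, 8.71 and 13.6 CPM in lactic acid Treg and 38, 32.8 and 52.7 CPM in TGF-beta Treg (-1.93 ± 0.26). Ell2, a transcription elongation factor, was 23.6, 15.8 and 17.6 CPM in lactic acid Treg and 54.4, 42.3 and 55.6 CPM in TGF-beta Treg (-1.42 ± 0.17). Mir155hg, the host transcript of the microRNA miR-155, was 4.09, 2.29 and 3.64 CPM in lactic acid Treg and 15.1, 8.11 and 7.73 CPM in TGF-beta Treg (-1.64 ± 0.27). All of these were lower with lactic acid. Xdh, the enzyme that makes uric acid, was higher, at 119.6, 103.4 and 96.7 CPM in lactic acid Treg and 46.3, 63.8 and 53.7 CPM in TGF-beta Treg (0.97 ± 0.16).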
